A study of Rattus norvegicus with 12 samples.

Results

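The potassium channel genes of the rat lung were taken as the rows whose gene symbol starts with Kcn, followed by letters and a number, and which had at least 10 counts in 4 or more of 12 RNA-seq libraries. Of 91 rows with such a symbol, 56 met the count minimum and 35 did not, in a table of 32883 genes. The rule used the level of a gene over all libraries and no difference between groups. Among the 56 genes were 18 voltage-gated pore subunits, 3 silent voltage-gated subunits, 12 auxiliary subunits, 9 inward rectifiers, 8 leak channels of the K2P family with 2 pore domains, and 6 calcium- or sodium-activated channels.

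Potassium channels let potassium ions leave the cell and so pull the membrane towards a negative voltage. In the smooth muscle of the pulmonary artery, closing or losing them depolarises the cell and opens voltage-gated calcium channels, and the vessel constricts. In lung epithelium, potassium channels of the basal membrane keep up the driving force for the secretion and absorption of salt and water, and in lymphocytes and macrophages they support calcium entry and release of cytokines.

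The libraries came from whole lungs of WT rats in 3 groups of 4. Rats of the MCT-Fer-1 group had received monocrotaline, a plant alkaloid that injures lung vessels and is used to produce pulmonary hypertension, and ferrostatin-1, an inhibitor of ferroptosis, which is cell death driven by lipid peroxidation. Rats of the MCT-vehicle group had received monocrotaline and vehicle, and for the Control group neither is stated. Ferrostatin-1 or vehicle was given for 10 days, and all groups carry a time of 25 days with no starting day; the labels give no strain, sex, age or dose. A difference from Control thus holds monocrotaline and dosing together, and these cannot be told apart. Numbers in the sample descriptions of Control libraries lie in a range of their own. Whether every library was made from its own rat is not stated, and the p-values then cover the spread between samples only, which may be technical.

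Library totals ran from 11601929 counts in MCT-Fer-1 1 to 70627239 counts in MCT-Fer-1 4, so that 3 counts correspond to 0.042 to 0.259 CPM, the counts scaled to a common library size with TMM factors. The 10 heart muscle markers summed to 5.34 to 9.63 CPM in MCT-Fer-1 libraries. They summed to 5.64, 334, 43.5 and 8.14 CPM in MCT-vehicle libraries and to 5.55, 6.31, 4.28 and 235 CPM in Control libraries. MCT-vehicle 2 and Control 4 thus stood apart most, and MCT-vehicle 3 less so. Channel results are given without MCT-vehicle 2 and Control 4 where the call changes. Markers of alveolar epithelium, which the labelled tissue should hold, were detected in every group, with sums of 17304 to 26218 CPM in MCT-Fer-1, 15713 to 25974 CPM in MCT-vehicle and 26255 to 27863 CPM in Control libraries. Every monocrotaline sum was below every Control sum, the closest being 26218 CPM in MCT-Fer-1 4 and 26255 CPM in Control 3. Of the 8 markers, 0 were called in either comparison with Control. The part of these sums in the lower channel genes was not tested.

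Of the 56 genes, 44 had at least 10 counts in all 12 libraries. Kcna5 and Kcne5 just met the rule with 4 such libraries, and Kcnc4, Kcng1 and Kcng4 just missed it with 3. Of the 35 genes below the minimum, 6 had no count in any library and the other 29 had at most 27 counts in a library. Counts of the 56 genes together made up 502, 483, 527 and 584 CPM in MCT-Fer-1 libraries, 601, 513, 513 and 499 CPM in MCT-vehicle libraries, and 652, 610, 595 and 557 CPM in Control libraries. Every Control sum but that of Control 4 was above all MCT-Fer-1 sums, while MCT-vehicle and Control sums overlapped. A filter on low counts over the 3 groups left 54 of the 56 for testing, all but Kcne5 and Kcnip1.

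In the lungs of monocrotaline rats given vehicle, channel genes were called about as often as other genes. Compared with Control, 6 of the 54 were lower (among them Kcnk2, Kcnj4, Kcnq1, Kcnip3 and Kcnj2) and 3 were higher (Kcnk13, Kcnt2 and Kcnip4) at a Benjamini-Hochberg adjusted p below 0.05 in edgeR's quasi-likelihood test. Of all 15257 genes tested, 8.28% were lower and 10.3% were higher by the same rule, or 18.6% in either direction, beside 16.7% of the channel genes. The median log2 fold change of the 54 was 0.073, with 29 above 0 and 25 below, and that of all tested genes was 0.016. Without Control 1 the counts of channel genes were 5 lower and 5 higher, beside 2694 of all 15456 genes called in either direction in that fit. Kcnip4 met the count minimum of the rule in monocrotaline libraries alone, through the groups in which it was high, and its call is a description. Whole-lung RNA cannot separate fewer cells of a type from less RNA per cell, for these genes or those below.

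**Figure D1:**
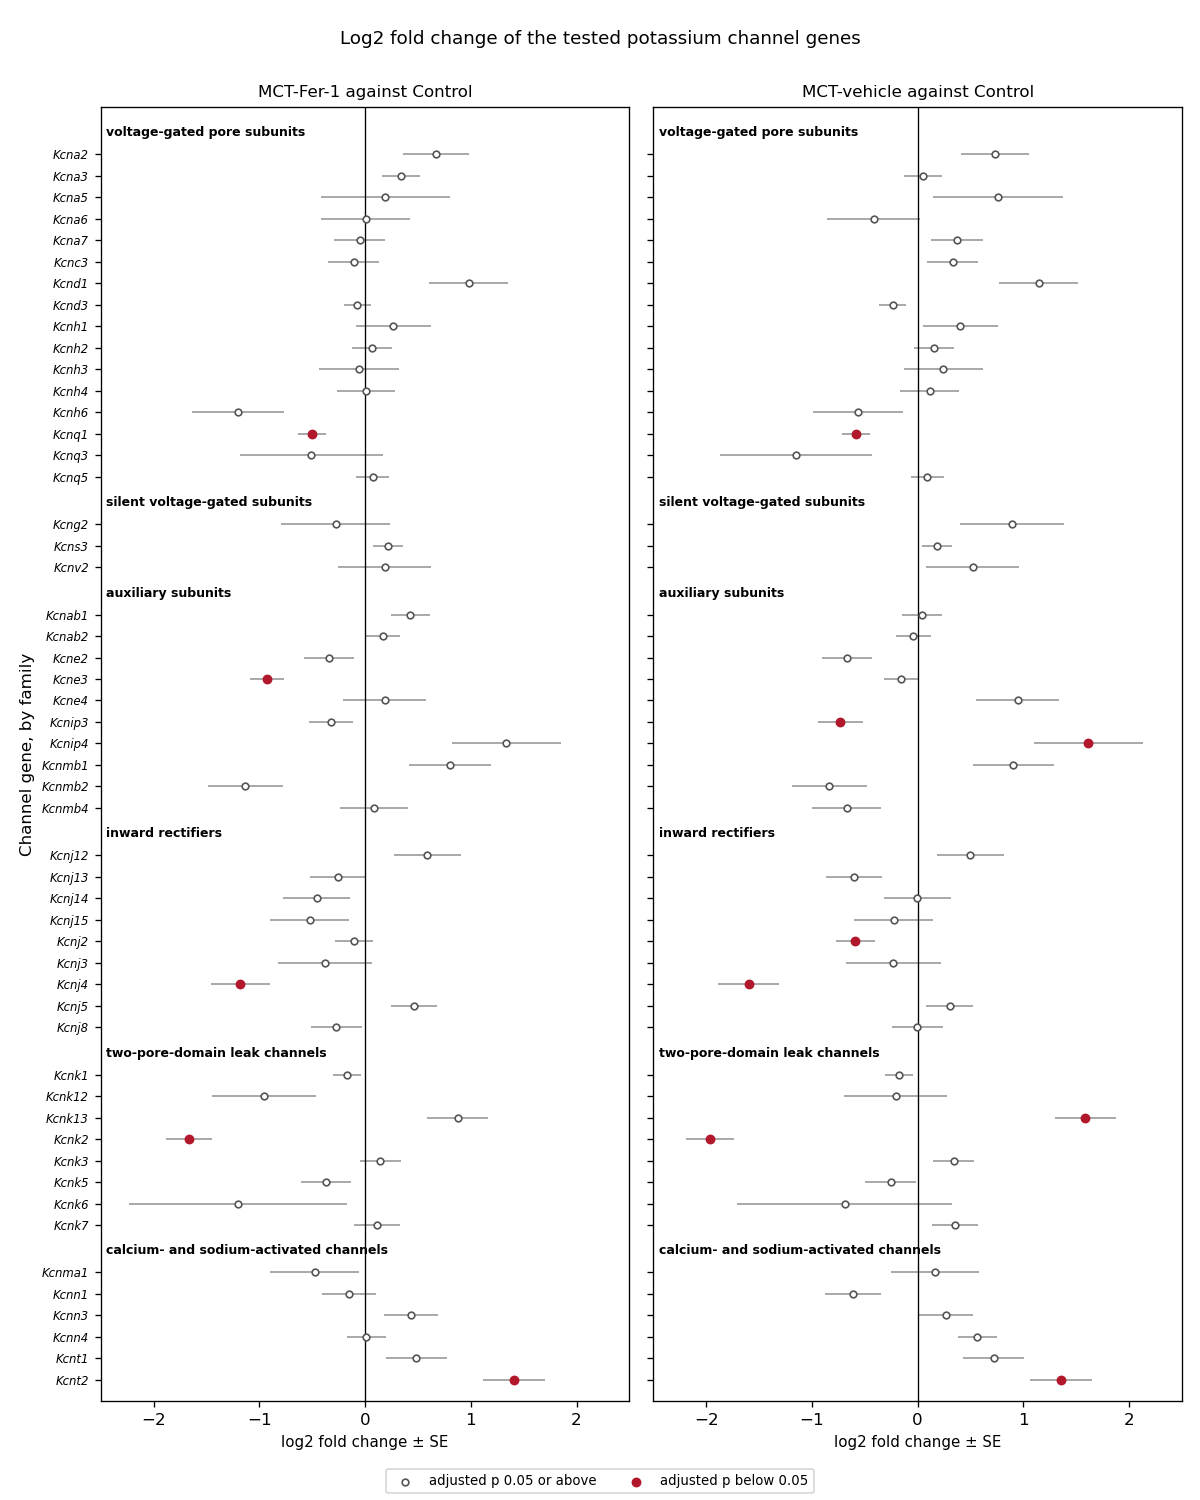
Log2 fold change with its standard error for 52 of the 54 tested potassium channel genes, by family, in MCT-Fer-1 against Control (left) and MCT-vehicle against Control (right); both panels use the same 4 Control libraries. Filled points have an edgeR adjusted p below 0.05: 5 in the left panel and 8 in the right panel, of which Kcnk2 lies lowest at -1.67 and -1.96.

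Promoters are shown for the called genes whose call in at least 1 comparison held under every alternative analysis. RefSeq's table of the GRCr8 build also had to hold a single entry under the symbol. The regions of genes that moved in different directions can thus be set side by side. Each runs from 250 bases before the annotated start to 50 bases after it, and the first base of the listed coordinates is counted from 1. Capitals mark matches, on either strand, to any of 6 motifs. These are TATAAA (the TATA box), CCAAT (the box bound by nuclear factor Y), GGGCGG (the box bound by Sp factors), TGACGTCA (a cAMP response element), TGANTCA (a site of AP-1 factors) and ACGTG (the core of the hypoxia response element).
Kcnj4, lower in MCT-Fer-1 and MCT-vehicle, chr7:112954498-112954797, minus strand: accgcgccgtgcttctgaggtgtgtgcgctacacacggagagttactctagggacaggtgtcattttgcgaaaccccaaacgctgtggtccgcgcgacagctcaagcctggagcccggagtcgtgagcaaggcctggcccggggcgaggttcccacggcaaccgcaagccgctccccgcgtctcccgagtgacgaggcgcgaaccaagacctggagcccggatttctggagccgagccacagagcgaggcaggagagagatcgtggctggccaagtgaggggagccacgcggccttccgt
Kcnk13, higher in MCT-vehicle, chr6:124971559-124971858, plus strand: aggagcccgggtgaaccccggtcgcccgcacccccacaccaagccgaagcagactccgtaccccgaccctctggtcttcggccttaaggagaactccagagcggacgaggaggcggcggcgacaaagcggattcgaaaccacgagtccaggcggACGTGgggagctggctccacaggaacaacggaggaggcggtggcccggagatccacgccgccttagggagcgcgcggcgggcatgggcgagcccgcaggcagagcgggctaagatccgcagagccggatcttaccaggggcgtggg
Kcnt2, higher in MCT-Fer-1 and MCT-vehicle, chr13:54215057-54215356, plus strand: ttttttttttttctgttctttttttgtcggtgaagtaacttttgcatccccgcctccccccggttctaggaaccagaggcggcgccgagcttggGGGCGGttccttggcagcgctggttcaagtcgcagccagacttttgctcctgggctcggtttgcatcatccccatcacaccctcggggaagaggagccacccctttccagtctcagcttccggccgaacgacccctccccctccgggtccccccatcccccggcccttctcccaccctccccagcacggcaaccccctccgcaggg
Kcne3, lower in MCT-Fer-1, chr1:163935785-163936084, plus strand: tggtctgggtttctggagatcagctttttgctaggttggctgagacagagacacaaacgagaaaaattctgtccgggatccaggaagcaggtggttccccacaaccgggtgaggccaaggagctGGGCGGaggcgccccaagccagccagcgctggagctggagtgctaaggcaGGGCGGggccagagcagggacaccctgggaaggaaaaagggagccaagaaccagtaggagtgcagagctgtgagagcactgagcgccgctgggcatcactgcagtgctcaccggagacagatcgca

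The 4 windows had 65.7% (Kcnj4), 69.0% (Kcnk13), 62.3% (Kcnt2) and 60.3% (Kcne3) G and C, with 30, 33, 18 and 11 CpG dinucleotides in that order. Kcne3 held GGGCGG at positions -126 and -76 from the start, Kcnt2 held it at -156, Kcnk13 held ACGTG at -96, and the Kcnj4 window held none of the 6 motifs. Of the 56 channel genes, 33 had a single entry in the promoter table by symbol, and genes with none or several were left out. GGGCGG was in 18 of the 33, or 54.5%, against 33.1% of all 33469 promoters in the table, which were not limited in this way. ACGTG was in 15.2% of the channel promoters and 19.3% of all, CCAAT in 24.2% and 37.5%, and TATAAA in 3.03% and 14.2%. The channel windows were richer in G and C, with a median of 64.7% against 51.7% over all promoters. The part of this in the shares of motifs was not tested. TGACGTCA and TGANTCA were found in 0 of the 33 channel windows and in 1.83% and 7.33% of all. These are matches of letters only, and the start used in these lungs is not known from the counts.

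Among the K2P leak channels, which hold the resting membrane voltage, Kcnk2 and Kcnk13 changed in opposite directions. In MCT-vehicle, 1 of the 8 tested was called lower and 1 higher, beside 8.28% and 10.3% of all genes. In MCT-Fer-1, 1 of the 8 was called lower and none higher, beside 4.12% and 6.67% of all genes. Kcnk2 (ENSRNOG00000002653) encodes TREK-1, a channel opened by stretch, heat and polyunsaturated lipids. It had 5.26, 3.32, 6.69 and 4.24 CPM in MCT-Fer-1 libraries, 4.57, 4.58, 3.73 and 2.89 CPM in MCT-vehicle libraries and 12.2, 16.8, 16.5 and 16.3 CPM in Control libraries. All 8 libraries of the monocrotaline groups lay below every Control library. The log2 fold change was -1.67 ± 0.22 (SE; adjusted p = 0.000442, edgeR's test with Benjamini-Hochberg adjustment) for MCT-Fer-1 and -1.96 ± 0.22 (adjusted p = 0.000135, edgeR) for MCT-vehicle, each over the same Control libraries. Both calls held in each of the 21 alternative analyses.

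Kcnk13 (ENSRNOG00000047363) encodes THIK-1, a halothane-inhibited channel which in mouse brain is carried by microglia, the resident macrophages. It had 1.81, 2.58, 2.23 and 1.87 CPM in MCT-Fer-1 libraries, 2.18, 2.81, 4.33 and 4.67 CPM in MCT-vehicle libraries and 1.26, 1.38, 0.783 and 1.18 CPM in Control libraries. Each MCT-vehicle and each MCT-Fer-1 library was above all Control libraries. Over Control, the log2 fold change was 0.88 ± 0.29 for MCT-Fer-1 (adjusted p = 0.0744, edgeR), which did not pass, and 1.59 ± 0.29 for MCT-vehicle (adjusted p = 0.00278, edgeR), in which the gene rose in all 21 alternatives. Macrophage markers were higher too: 6 of 8 in MCT-Fer-1 and 7 of 8 in MCT-vehicle were called, with sums of 1247 to 1395 CPM in MCT-Fer-1, 1231 to 1828 CPM in MCT-vehicle and 886 to 971 CPM in Control libraries, and no marker was at 0 in all libraries. Their part in the rise of Kcnk13 was not tested.

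The other 6 K2P genes tested were not called in any comparison. Kcnk3 encodes TASK-1, the acid- and hypoxia-sensitive leak channel of pulmonary artery smooth muscle, in which loss-of-function variants cause heritable pulmonary arterial hypertension in humans. It had 21.6, 14, 20.7 and 18.8 CPM in MCT-Fer-1 libraries, 22.5, 21.5, 17.7 and 24.2 CPM in MCT-vehicle libraries and 23.9, 13.1, 17.6 and 13.2 CPM in Control libraries. The groups overlapped widely, and the log2 fold change was 0.15 ± 0.19 for MCT-Fer-1 (adjusted p = 0.704, edgeR) and 0.34 ± 0.19 for MCT-vehicle (adjusted p = 0.247, edgeR). Control 1 was the highest Control library, and without it the MCT-vehicle value was 0.55 with an edgeR adjusted p of 0.0433. Kcnk1, which encodes TWIK-1, averaged 72.4 ± 12.6 CPM in MCT-Fer-1, 72.3 ± 11 CPM in MCT-vehicle and 81.6 ± 8.23 CPM in Control libraries (SD, n = 4 per group). Smooth muscle markers summed to 1293 to 1929 CPM in MCT-Fer-1, 1498 to 2291 CPM in MCT-vehicle and 1158 to 1882 CPM in Control libraries, and 0 of 9 were called in either comparison with Control.

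Of the 9 inward rectifiers, which pass potassium most readily near the resting voltage, 2 fell in MCT-vehicle and none rose, beside 8.28% of all genes lower and 10.3% higher. Kcnj4 (ENSRNOG00000013869), whose promoter is shown above, encodes Kir2.3. It had 2.5, 4.15, 2.84 and 6.17 CPM in MCT-Fer-1 libraries, 3.12, 2, 3.51 and 3.36 CPM in MCT-vehicle libraries and 7.04, 7.75, 10.7 and 10.7 CPM in Control libraries. The monocrotaline and Control libraries did not overlap, with MCT-Fer-1 4 nearest to Control. Its log2 fold change was -1.18 ± 0.28 for MCT-Fer-1 (adjusted p = 0.0192, edgeR) and -1.60 ± 0.29 for MCT-vehicle (adjusted p = 0.00266, edgeR). The MCT-Fer-1 call was lost without MCT-Fer-1 3, without Control 3 or without Control 4, with log2 fold changes of -1.05 to -1.09 and edgeR adjusted p-values of 0.0614, 0.0567 and 0.0592.

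Kcnj2 (ENSRNOG00000004720) encodes Kir2.1, the main inward rectifier of vascular endothelium. It had 11, 12.4, 17.5 and 14.4 CPM in MCT-Fer-1 libraries, 8.12, 12.2, 9.47 and 9.87 CPM in MCT-vehicle libraries and 17.8, 13.3, 17.3 and 11.4 CPM in Control libraries. MCT-vehicle libraries other than MCT-vehicle 2 lay below all libraries of the other groups, and MCT-vehicle 2 was above Control 4. Its log2 fold change was -0.11 ± 0.18 for MCT-Fer-1 (adjusted p = 0.777, edgeR) and -0.59 ± 0.18 for MCT-vehicle (adjusted p = 0.0418, edgeR), in which it fell. The MCT-vehicle call was lost when any 1 of MCT-Fer-1 4, MCT-vehicle 1, 3 or 4, or Control 1, 2 or 3 was left out, with log2 fold changes of -0.64 to -0.50 and edgeR adjusted p-values of 0.0529 to 0.115. Some endothelial markers were lower as well: of 9 tested, 3 were lower and 1 higher in MCT-Fer-1, and 5 lower and 1 higher in MCT-vehicle. Their sums were 2766 to 3409 CPM in MCT-Fer-1, 2190 to 2912 CPM in MCT-vehicle and 3640 to 4231 CPM in Control libraries, none was at 0 in all libraries, and their part in the fall of Kcnj2 was not tested.

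The remaining inward rectifiers passed no test. Kcnj8 encodes Kir6.1, the pore of the ATP-sensitive channel of vessels, which works only with a sulfonylurea receptor. It averaged 5.99 ± 1.34 CPM in MCT-Fer-1, 7.23 ± 2.45 CPM in MCT-vehicle and 7.29 ± 1.19 CPM in Control libraries (SD, n = 4 per group). Abcc9, the gene of that receptor in vessels, averaged 52.6 ± 10.9, 52.1 ± 3.33 and 52.7 ± 9.79 CPM in the same order of groups. Kcnj15, which encodes Kir4.2, had 56.6, 33.2, 35.3 and 65.3 CPM in MCT-Fer-1 libraries, 70.8, 68.1, 64.4 and 30.4 CPM in MCT-vehicle libraries and 117, 68.8, 49.5 and 38.4 CPM in Control libraries, with Control 1 far above the other Control libraries. Over the 9 genes the median log2 fold change was -0.27 for MCT-Fer-1 and -0.23 for MCT-vehicle, with 7 of 9 below 0 in each. Beside these, 7713 and 7261 of all 15257 genes were below 0, in that order. Both values rest on the same Control libraries and are not independent.

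**Figure D2:**
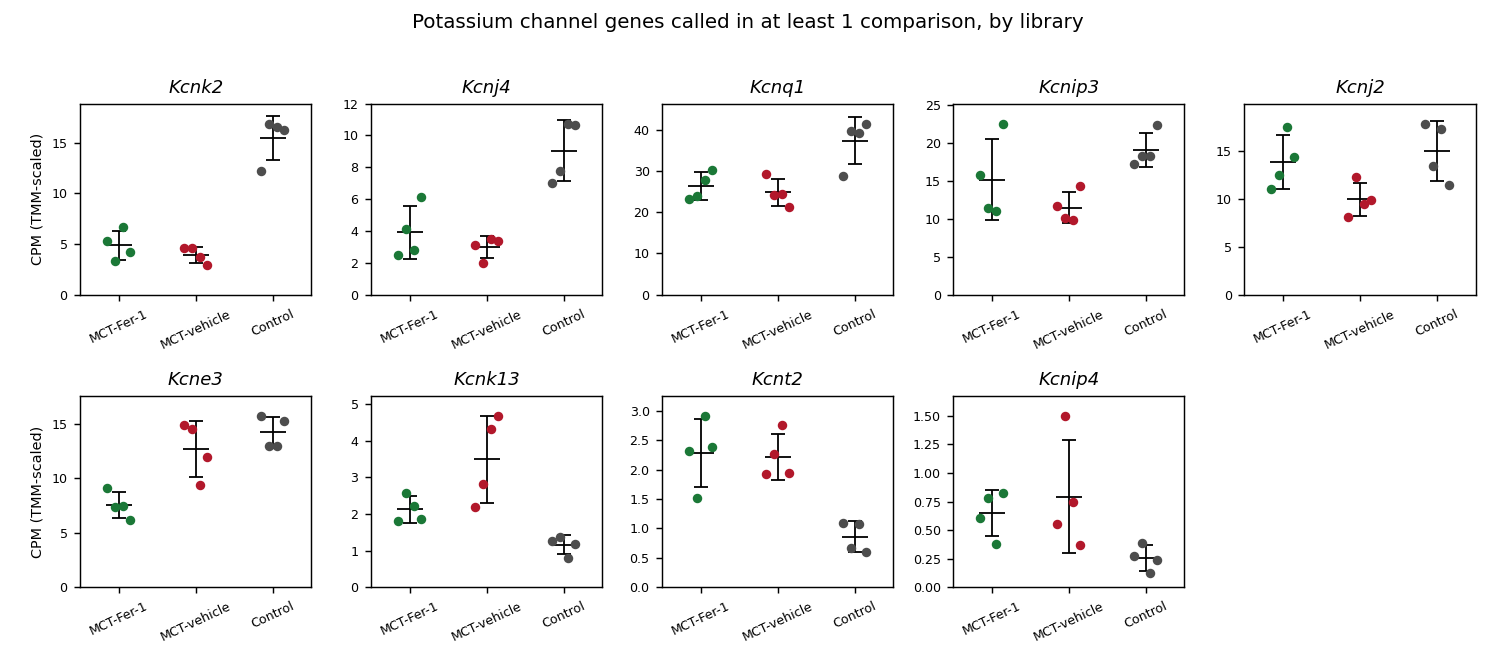
CPM of 9 potassium channel genes called in at least 1 comparison with Control, by library, in MCT-Fer-1, MCT-vehicle and Control from left to right (4 libraries each); horizontal lines are group means and bars the SD. Kcnk2 and Kcnj4 lie lower in both monocrotaline groups than in every Control library, Kcnk13 and Kcnt2 lie higher, and Kcne3 lies lower in MCT-Fer-1 than in both other groups.

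Of 18 voltage-gated pore subunits, which open when the membrane depolarises, 2 fell in both monocrotaline groups, among them Kcnq1, and none rose. The shares of all genes were 4.12% lower and 6.67% higher in MCT-Fer-1, and 8.28% lower and 10.3% higher in MCT-vehicle. Kcnq1 (ENSRNOG00000020532) encodes Kv7.1, which with Kcne2 or Kcne3 subunits forms a constantly open potassium channel of epithelia. It had 23.1, 23.8, 27.9 and 30.3 CPM in MCT-Fer-1 libraries, 29.3, 24.3, 24.4 and 21.3 CPM in MCT-vehicle libraries and 28.9, 39.8, 39.1 and 41.4 CPM in Control libraries. Control 1 lay among the monocrotaline libraries, and the other Control libraries lay above all of them. For MCT-Fer-1 its log2 fold change was -0.50 ± 0.13 (adjusted p = 0.0310, edgeR). That call was lost without any 1 of MCT-Fer-1 1, 2 or 3 or Control 2, 3 or 4, with log2 fold changes of -0.53 to -0.44 and edgeR adjusted p-values of 0.0598 to 0.0933. It was also lost without MCT-vehicle 2 and Control 4 together (-0.44, adjusted p = 0.110, edgeR). For MCT-vehicle the log2 fold change was -0.59 ± 0.13 (adjusted p = 0.00917, edgeR), and -0.53 with an edgeR adjusted p of 0.0618 when that pair was left out.

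The other 16 pore subunits were not called. Kcna5 encodes Kv1.5, a hypoxia-sensitive channel of pulmonary artery smooth muscle. It had 0.345, 0.369, 0.303 and 0.811 CPM in MCT-Fer-1 libraries, 0.342, 1.41, 0.373 and 0.735 CPM in MCT-vehicle libraries and 0.934, 0.221, 0.181 and 0.355 CPM in Control libraries. These levels are near the lowest the rule admits, with the highest library of each group well above the next, and the log2 fold change of 0.19 ± 0.61 for MCT-Fer-1 (adjusted p = 0.887, edgeR) and 0.76 ± 0.61 for MCT-vehicle (adjusted p = 0.426, edgeR) had wide errors. The MCT-vehicle value was 0.18 without MCT-vehicle 2, 0.11 without MCT-vehicle 2 and Control 4, and 1.5 without Control 1. Kcna3, which encodes Kv1.3 of T lymphocytes, averaged 17.8 ± 1.39 CPM in MCT-Fer-1, 14.7 ± 4.55 CPM in MCT-vehicle and 14 ± 1.98 CPM in Control libraries (SD, n = 4 per group). T cell markers summed to 122 to 175 CPM in MCT-Fer-1, 115 to 168 CPM in MCT-vehicle and 120 to 159 CPM in Control libraries, and 0 of 7 were called. Kcnq5, whose channel relaxes vascular smooth muscle when opened, averaged 11.8 ± 1.42 CPM in MCT-Fer-1, 11.9 ± 1.87 CPM in MCT-vehicle and 11.1 ± 2.02 CPM in Control libraries. Over all 18 pore subunits the median log2 fold change was 0.0057 for MCT-Fer-1 and 0.13 for MCT-vehicle.

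Silent subunits form no channel alone but change the gating of other voltage-gated channels. None of the 3 tested was called, beside 10.8% of all genes called in either direction in MCT-Fer-1 and 18.6% in MCT-vehicle, each against Control. Kcns3, which encodes Kv9.3, averaged 32.1 ± 3.19 CPM in MCT-Fer-1, 31.4 ± 5.63 CPM in MCT-vehicle and 27.7 ± 4.49 CPM in Control libraries (SD, n = 4 per group). Its log2 fold change was 0.21 ± 0.14 for MCT-Fer-1 (adjusted p = 0.378, edgeR) and 0.18 ± 0.14 for MCT-vehicle (adjusted p = 0.402, edgeR).

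Among the 10 auxiliary subunits tested, Kcne3 fell in MCT-Fer-1 and Kcnip3 fell in MCT-vehicle. Kcnip4 was called higher in MCT-vehicle, which is a description only, as given below. The shares of all genes were 4.12% lower and 6.67% higher in MCT-Fer-1, and 8.28% lower and 10.3% higher in MCT-vehicle. Kcnip3 and Kcnip4 encode calcium-binding KChIP proteins that bring Kv4 channels to the membrane, and KChIP3 is also known as the transcriptional repressor DREAM. Kcnip3 (ENSRNOG00000014152) had 15.8, 11.4, 11.1 and 22.5 CPM in MCT-Fer-1 libraries, 11.7, 10.1, 9.84 and 14.3 CPM in MCT-vehicle libraries and 17.3, 18.3, 18.4 and 22.4 CPM in Control libraries. All MCT-vehicle libraries were below all Control libraries, while MCT-Fer-1 libraries spread over both ranges. Log2 fold changes were -0.32 ± 0.21 for MCT-Fer-1 (adjusted p = 0.383, edgeR) and -0.73 ± 0.21 for MCT-vehicle (adjusted p = 0.0320, edgeR). Without any 1 of MCT-vehicle 1, 2 or 3 or Control 2, 3 or 4 the MCT-vehicle call was lost, with log2 fold changes of -0.75 to -0.65 and edgeR adjusted p-values of 0.0589 to 0.0905. Without both MCT-vehicle 2 and Control 4 it was -0.59 (adjusted p = 0.168, edgeR).

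Kcnip4 (ENSRNOG00000032350) had 0.603, 0.783, 0.378 and 0.825 CPM in MCT-Fer-1 libraries, 0.555, 1.5, 0.746 and 0.368 CPM in MCT-vehicle libraries and 0.275, 0.388, 0.12 and 0.237 CPM in Control libraries. The lowest library of each monocrotaline group lay just below the highest Control library. It reached 10 counts in 3 libraries of each monocrotaline group and in 0 Control libraries, and so entered the set through the groups in which it was higher; its fold changes over Control are a description and no support for a rise. The log2 fold change was 1.34 ± 0.51 for MCT-Fer-1 (adjusted p = 0.120, edgeR) and 1.61 ± 0.52 for MCT-vehicle (adjusted p = 0.0452, edgeR). MCT-vehicle 2 was the highest library, and without it the value was 1.08 (adjusted p = 0.156, edgeR), or 1.04 without Control 4 as well (adjusted p = 0.247, edgeR); the heart muscle markers were also highest in that library, and their part in the value was not tested. Leaving out MCT-Fer-1 1, 2 or 4, MCT-vehicle 3 or any 1 Control library also ended the call, with edgeR adjusted p-values of 0.0536 to 0.120.

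Kcne3 (ENSRNOG00000017054) encodes the subunit that holds the Kcnq1 channel open in intestinal and airway epithelium. It had 9.14, 7.37, 7.45 and 6.15 CPM in MCT-Fer-1 libraries, 14.9, 14.5, 9.4 and 11.9 CPM in MCT-vehicle libraries and 15.7, 13, 12.9 and 15.2 CPM in Control libraries. Every MCT-Fer-1 library was below every MCT-vehicle and every Control library, although MCT-vehicle 3 lay close to the highest of them. The gene fell in MCT-Fer-1 relative to Control, with a log2 fold change of -0.93 ± 0.16 (adjusted p = 0.00325, edgeR), and this call held in all 21 alternatives. For MCT-vehicle the value was -0.16 ± 0.16 (adjusted p = 0.531, edgeR). Kcne2, another partner of Kcnq1, had 41.5, 60.1, 66.4 and 77.3 CPM in MCT-Fer-1 libraries, 70.9, 29.7, 47.5 and 49 CPM in MCT-vehicle libraries and 64.9, 87.8, 76.7 and 83.8 CPM in Control libraries. It passed neither test, with a log2 fold change of -0.34 ± 0.24 for MCT-Fer-1 (adjusted p = 0.407, edgeR) and -0.67 ± 0.24 for MCT-vehicle (adjusted p = 0.0733, edgeR). MCT-vehicle 1 was the highest of its group, and without it the MCT-vehicle value was -0.90 (adjusted p = 0.0174, edgeR). The MCT-vehicle difference was also called lower by DESeq2 (-0.67, adjusted p = 0.0207) and by limma voom (-0.73, adjusted p = 0.0360). Airway epithelium markers summed to 6562 to 10500 CPM in MCT-Fer-1, 6394 to 9268 CPM in MCT-vehicle and 8737 to 9928 CPM in Control libraries; 1 of 4 tested was lower in each comparison with Control, none was at 0 in all libraries, and their part in these values was not tested.

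Of the 6 channels opened by calcium or sodium, Kcnt2 rose in both monocrotaline groups and none fell. Over all genes, 6.67% were higher and 4.12% lower in MCT-Fer-1, and 10.3% were higher and 8.28% lower in MCT-vehicle. Kcnt2 (ENSRNOG00000013312) encodes Slick, a channel opened by intracellular sodium and chloride. It had 2.33, 1.52, 2.91 and 2.39 CPM in MCT-Fer-1 libraries, 1.92, 2.27, 2.76 and 1.94 CPM in MCT-vehicle libraries and 1.1, 0.664, 1.08 and 0.592 CPM in Control libraries. The lowest monocrotaline library, MCT-Fer-1 2, was above the highest Control library. Kcnt2 had log2 fold changes of 1.41 ± 0.29 for MCT-Fer-1 (adjusted p = 0.00853, edgeR) and 1.36 ± 0.29 for MCT-vehicle (adjusted p = 0.00665, edgeR). It was the 1 channel gene higher in MCT-Fer-1, and both calls held in all 21 alternatives.

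Kcnn4 encodes KCa3.1, the intermediate-conductance channel of endothelium, macrophages, mast cells and T lymphocytes. It had 10.3, 12, 13 and 8.54 CPM in MCT-Fer-1 libraries, 11.6, 18.6, 15.9 and 18.1 CPM in MCT-vehicle libraries and 13, 10.6, 8.37 and 11.5 CPM in Control libraries. MCT-vehicle 1 lay within the Control range and the other MCT-vehicle libraries above it. For MCT-Fer-1 the log2 fold change over Control was 0.0095 ± 0.18 (adjusted p = 0.982, edgeR). The log2 fold change was 0.56 ± 0.18 in MCT-vehicle (adjusted p = 0.0508, edgeR), which missed the threshold. Without MCT-Fer-1 4, without MCT-vehicle 1 or without Control 1 it was 0.56, 0.69 and 0.66, with edgeR adjusted p-values of 0.0477, 0.0179 and 0.0391. It was also called higher by DESeq2 (0.56, adjusted p = 0.0267) and by edgeR after thinning to the smallest library (0.61, adjusted p = 0.0429). Mast cell markers, all 5 of which were higher in both monocrotaline groups, summed to 227 to 502 CPM in MCT-Fer-1, 242 to 761 CPM in MCT-vehicle and 18.9 to 38.1 CPM in Control libraries; their part in the value of Kcnn4 was not tested.

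Kcnma1, the pore of the large-conductance BK channel, averaged 0.864 ± 0.195 CPM in MCT-Fer-1, 1.36 ± 0.649 CPM in MCT-vehicle and 1.22 ± 0.529 CPM in Control libraries (SD, n = 4 per group). Its smooth muscle subunit gene Kcnmb1 had 5, 6.5, 3.56 and 3.03 CPM in MCT-Fer-1 libraries, 2.86, 8.21, 2.83 and 5.25 CPM in MCT-vehicle libraries and 2.75, 1.61, 3.67 and 2.25 CPM in Control libraries. MCT-vehicle 2 was the highest library, the groups overlapped, and the log2 fold change of 0.91 ± 0.38 in MCT-vehicle did not pass (adjusted p = 0.123, edgeR); without MCT-vehicle 2 and Control 4 it was 0.45. Kcnn3, which encodes the small-conductance channel SK3 of endothelium, averaged 9.68 ± 3.27 CPM in MCT-Fer-1, 8.64 ± 2.6 CPM in MCT-vehicle and 7.17 ± 1.14 CPM in Control libraries. The median log2 fold change of the 6 genes was 0.22 for MCT-Fer-1 and 0.41 for MCT-vehicle.

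**Figure D3:**
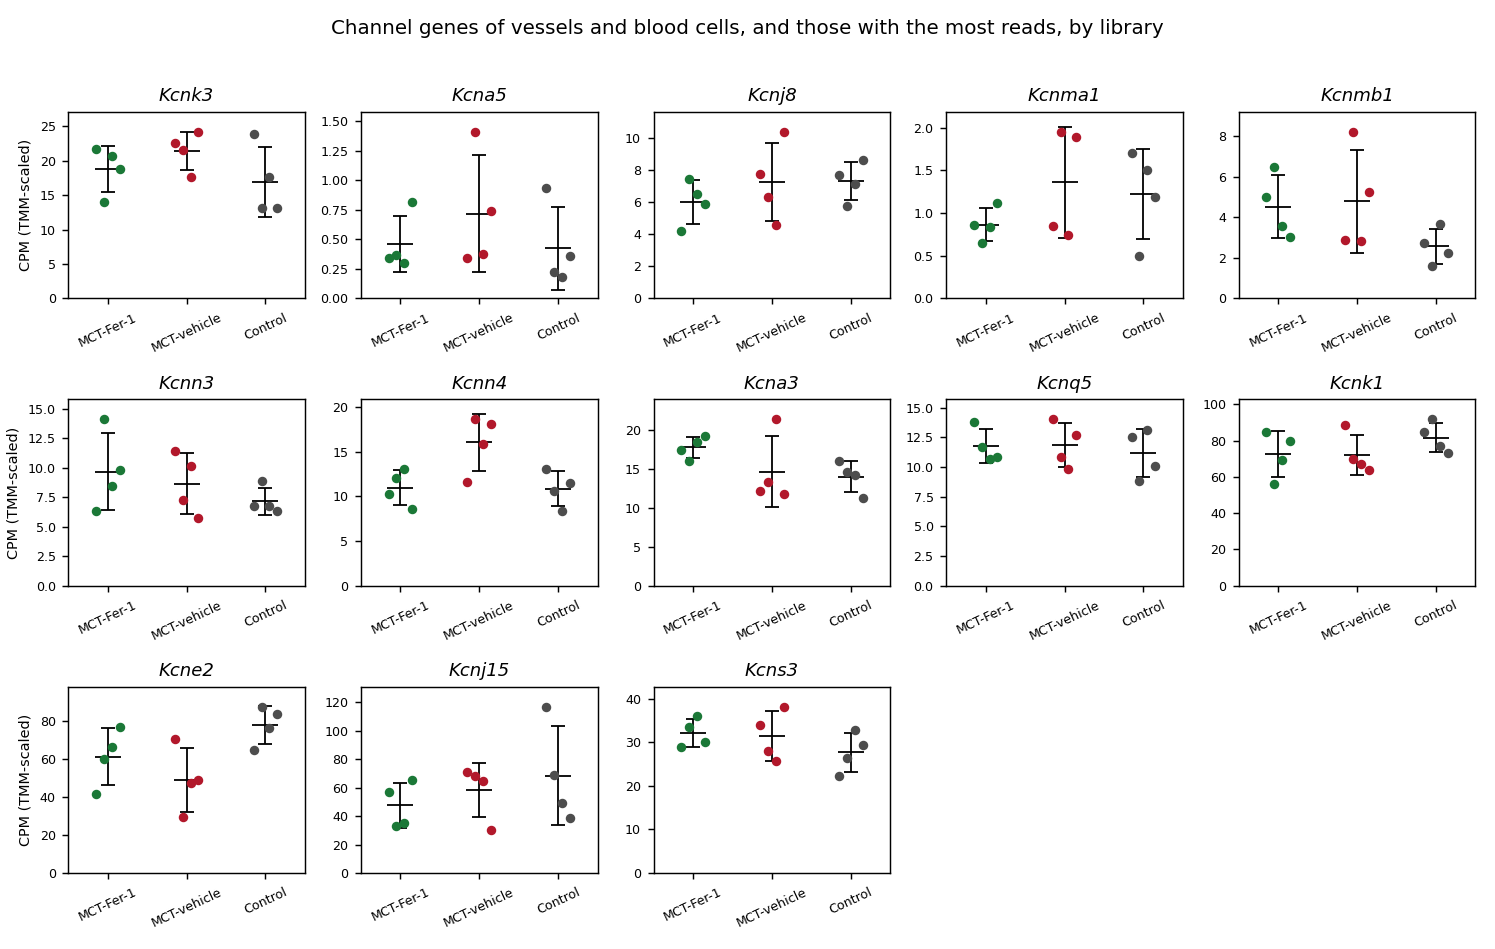
CPM by library of potassium channel genes known from vessels and blood cells and of those with the highest mean CPM, leaving out called genes, in MCT-Fer-1, MCT-vehicle and Control from left to right (4 libraries each; lines and bars are the mean and SD). MCT-vehicle and Control overlap in every panel, MCT-Fer-1 lies just above Control for Kcna3, and Kcna5 and Kcnmb1 have their highest library in MCT-vehicle.

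Among the monocrotaline rats given ferrostatin-1, 5 of the 54 channel genes were lower than in Control (among them Kcnk2, Kcnj4, Kcnq1 and Kcne3) and Kcnt2 was higher. Over all tested genes 4.12% were lower and 6.67% higher at the same threshold, or 10.8% in either direction, beside 11.1% of the channel genes. The median log2 fold change was -0.024 over the 54 and -0.0036 over all genes. MCT-vehicle and MCT-Fer-1 share their Control libraries, so a gene called in both comparisons is not independent evidence from each. Kcnk13, Kcnip3, Kcnip4 and Kcnj2 were called in MCT-vehicle and not in MCT-Fer-1, and Kcne3 the reverse, which by itself does not show that the monocrotaline groups differed.

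The direct comparison asked whether ferrostatin-1 altered channel genes in monocrotaline rats. No channel gene was called between MCT-Fer-1 and MCT-vehicle by edgeR, and 0% of all 15257 genes were. An unadjusted p below 0.05 was found for 6 of the 54, or 11.1%, beside 12% of all genes. Of these, Kcne3, Kcnn4, Kcnk13 and Kcng2 lay lower in MCT-Fer-1, beside 6.17% of all genes, and Kcnj2 and Kcnmb4, a brain subunit of the BK channel, lay higher, beside 5.85%. The difference in Kcne3 was -0.77 ± 0.16 on the log2 scale (adjusted p = 0.132, edgeR), the smallest adjusted p of the channel genes. It was called by DESeq2, at -0.78 with an adjusted p of 0.00214, and by edgeR without MCT-vehicle 3, at -0.88 with an adjusted p of 0.0458. In this comparison DESeq2 called 237 of 15257 genes, and edgeR without MCT-vehicle 3 called 41 of 15443.

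Kcnn4 differed by -0.55 ± 0.18 (adjusted p = 0.282, edgeR) and Kcnk13 by -0.71 ± 0.28 (adjusted p = 0.342, edgeR), both on the log2 scale and with overlapping libraries. Kcnj2 was at 0.48 ± 0.18 (adjusted p = 0.329, edgeR). Kcng2, a silent subunit, had 0.259, 0.184, 0.265 and 0.266 CPM in MCT-Fer-1 libraries, 0.598, 0.726, 0.298 and 0.578 CPM in MCT-vehicle libraries and 0.275, 0.554, 0.0602 and 0.296 CPM in Control libraries. All MCT-Fer-1 libraries of Kcng2 were below all MCT-vehicle libraries, at values of only a few counts in the shallower libraries, and its log2 fold change was -1.17 ± 0.48 (adjusted p = 0.360, edgeR). Kcng2 reached 10 counts in 1 MCT-Fer-1, 3 MCT-vehicle and 1 Control library, so it met the rule through MCT-vehicle, and this difference is a description. For other genes called against Control, the log2 fold change of MCT-Fer-1 over MCT-vehicle was 0.30 ± 0.22 for Kcnk2, 0.42 ± 0.29 for Kcnj4, 0.41 ± 0.21 for Kcnip3, 0.088 ± 0.13 for Kcnq1, 0.050 ± 0.27 for Kcnt2 and -0.28 ± 0.45 for Kcnip4, with edgeR adjusted p-values of 0.471 to 0.959.

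**Figure D4:**
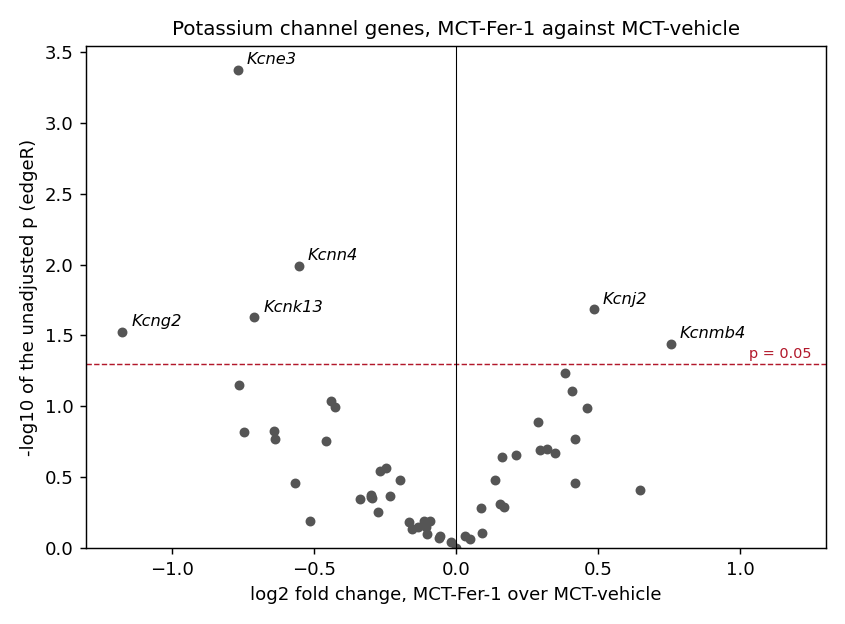
Log2 fold change of MCT-Fer-1 over MCT-vehicle (horizontal) against -log10 of edgeR's unadjusted p (vertical) for the 54 tested potassium channel genes; the dashed line marks 0.05. Above the line lie 6 genes, Kcne3 highest, and none had an adjusted p below 0.05.

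Genes that act with the channels were examined beside them. Listed were 13 partner subunits and related channels, among them sulfonylurea receptors and Hcn pacemaker channels. Of these, 7 were tested and none was called in any comparison. The shares of all genes called were 10.8% in MCT-Fer-1 and 18.6% in MCT-vehicle, each against Control, and 0% between MCT-Fer-1 and MCT-vehicle. Of 31 genes of calcium entry, calcium release and depolarising current, 4 were higher and 4 lower in MCT-vehicle than in Control, or 12.9% each way beside 10.3% and 8.28% of all genes. The higher ones were Trpv2, Trpc6, Cacna1g and Orai2, and the lower ones Trpm4, Stim1, Stim2 and Itpr2. Trpm4, a calcium-activated channel that depolarises the cell, averaged 35.1 ± 7.23 CPM in MCT-Fer-1, 32.7 ± 3.2 CPM in MCT-vehicle and 52.8 ± 4 CPM in Control libraries (SD, n = 4 per group). It fell in both monocrotaline groups, with a log2 fold change of -0.59 ± 0.13 for MCT-Fer-1 (adjusted p = 0.0112, edgeR) and -0.69 ± 0.13 for MCT-vehicle (adjusted p = 0.00315, edgeR). Trpv2, a stretch-sensitive cation channel, rose in both, with 0.81 ± 0.19 for MCT-Fer-1 (adjusted p = 0.0185, edgeR) and 0.85 ± 0.19 for MCT-vehicle (adjusted p = 0.00912, edgeR). Its MCT-Fer-1 call was lost without MCT-Fer-1 3 or without Control 1, 3 or 4, with log2 fold changes of 0.66 to 0.80 and edgeR adjusted p-values of 0.0515 to 0.0537. That call was also lost without MCT-vehicle 2 and Control 4 together (0.81, adjusted p = 0.0615, edgeR).

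Trpc6, a receptor-operated calcium channel of pulmonary artery smooth muscle, had a log2 fold change of 0.80 ± 0.23 in MCT-vehicle (adjusted p = 0.0302, edgeR). The value for Cacna1g, of a T-type calcium channel, was 0.97 ± 0.29 (adjusted p = 0.0334, edgeR), and for Stim2, a sensor of calcium stores, -0.30 ± 0.072 (adjusted p = 0.0118, edgeR). Leaving out any 1 of MCT-vehicle 1, 2 or 4 or Control 2 or 4 ended the call of Trpc6, with edgeR adjusted p-values of 0.0506 to 0.0872, and leaving out MCT-vehicle 2 or any 1 Control library ended that of Cacna1g, with 0.0624 to 0.102. Single libraries also decided the calls of Orai2 and Stim1 in MCT-vehicle, with edgeR adjusted p-values of 0.0532 to 0.0711 and 0.0632 to 0.0963 where they were lost. Without MCT-vehicle 2 and Control 4 together, Trpm4 and Stim2 were called of these 8, and the edgeR adjusted p-values of the other 6 were 0.0607 to 0.187. Between MCT-Fer-1 and Control 2 of the 31 were higher, Trpv2 and Orai2, and Trpm4 was lower, or 6.45% higher and 3.23% lower beside 6.67% and 4.12% of all genes. Leaving out any 1 of MCT-Fer-1 1, 2 or 3 or Control 1, 2 or 4 ended the call of Orai2 there, with log2 fold changes of 0.37 to 0.43 and edgeR adjusted p-values of 0.0563 to 0.0769. Without MCT-vehicle 2 and Control 4 it was 0.43 (adjusted p = 0.0689, edgeR). The median log2 fold change of the 31 was 0.0053 for MCT-Fer-1 and 0.0096 for MCT-vehicle, and none was called between MCT-Fer-1 and MCT-vehicle.

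**Figure D5:**
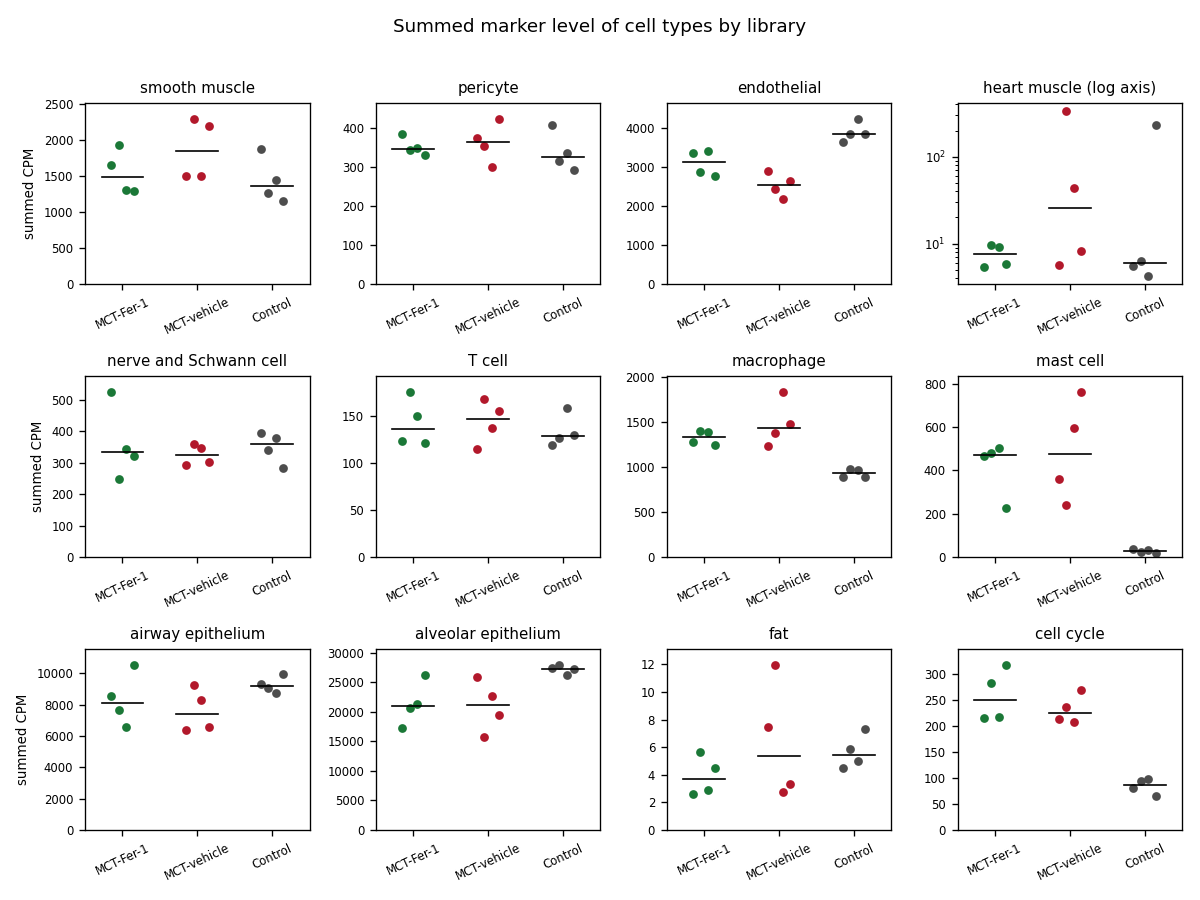
Summed CPM of cell type marker lists by library in MCT-Fer-1, MCT-vehicle and Control from left to right; the line is the group median, and the heart muscle panel has a log axis. Macrophage, mast cell and cell cycle sums are higher and endothelial and alveolar epithelium sums lower in both monocrotaline groups than in every Control library, and heart muscle sums reach 334 CPM in MCT-vehicle 2 and 235 CPM in Control 4.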

How the data were processed

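RNA-seq of whole rat lung gave 12 libraries. Per the file headers, the deposited table gives raw counts of reads for each gene; the authors' group means are further signal columns, which equalled the mean of the 4 libraries within 0.01 in 32883 genes and were not used. The aligner, counter, strand setting and genome build of the authors' counts: not given in the sources used here. Without strand, reads of a gene and an overlapping antisense gene cannot be told apart. No gene lengths were used, so levels are not compared between genes.

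Groups came from the sample titles. After filtering with filterByExpr and scaling by TMM, edgeR's robust quasi-likelihood method was fitted with 1 coefficient per group over all 12 libraries (9 residual degrees of freedom). A gene counted as called when its p, adjusted by Benjamini-Hochberg over 15257 genes, was below 0.05. A standard error is the log2 fold change over the square root of F. Versions were R 4.3.3, DESeq2 1.42.0, edgeR 4.0.16 and limma 3.58.1. The floor of 3 counts covers counting error only.

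The channel genes, gene lists, markers and tests were chosen with earlier results of these data known. Named were the genes called in any comparison, chosen channels of vessels, epithelium and lymphocytes, the 5 with the highest mean CPM, and the 5 with the smallest p between MCT-Fer-1 and MCT-vehicle. Results of 2 channel genes are not reported here by name, although the counts and medians include them. Kcnmb4 and Kcnk6 were named after their values were seen. Lists of partner subunits, calcium genes and markers are described by counts of called genes. Pecam1 and Foxj1 had no match in the table. Promoters came from a RefSeq table of GRCr8.

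The test was checked on simulated counts with known changes. In genes drawn from all those tested, it recovered 34.8% to 44.6% of 1.5-fold changes and 63.1% to 68.2% of 2-fold changes. It recovered 89.4% to 95.5% of 4-fold changes. Each simulated comparison changed 65 to 67 genes per fold among 15099 to 15120, a far smaller share than was called against Control. The rates hold for that setting and were not measured with more genes changed. A gene that was not called may thus still have changed. Between libraries, log2 CPM had r of 0.945 to 0.982, and all pairs differed by more than sampling noise (chi-square per degree of freedom at least 10.2). Alternatives were other size factors, no filter, DESeq2, limma voom, fits of 2 groups, the replicate number as a block, leaving out each library, leaving out MCT-vehicle 2 and Control 4, and thinning to the smallest total. For calcium genes they were added after seeing the data.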

Additional observations from a re-analysis of the deposited data

Results flagged for a closer look

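In 6 of 69 combinations of a named gene and a group, 1 of the 4 libraries stood apart by Dixon's ratio at its 95% critical value, where chance marks about 1 in 20. Kcnk2 was at 12.2 CPM in Control 1, against 16.3 to 16.8 CPM in the other Control libraries. Kcna5 was at 0.811 CPM in MCT-Fer-1 4, with 0.303 to 0.369 CPM in the other MCT-Fer-1 libraries. Kcnn3 was at 8.86 CPM in Control 2, against 6.33 to 6.76 CPM in the others. MCT-vehicle 3 stood apart for Kcna3, with 21.4 CPM against 11.8 to 13.3 CPM. Kcnj15 was at 30.4 CPM in MCT-vehicle 4, against 64.4 to 70.8 CPM. Kcng2 was at 0.184 CPM in MCT-Fer-1 2, against 0.259 to 0.266 CPM, values near the floor of 3 counts.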

How the results depend on the processing

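Each comparison was recomputed under 21 alternatives, 12 of which left out 1 library. In MCT-vehicle against Control the 3 channel genes called higher became 5 under DESeq2 and 2 to 5 without a library (5 without Control 1), and the 6 called lower became 4 to 6 without a library. Over all genes in that comparison, the main fit called 2843 of 15257 and DESeq2 3525 of 15257. Fits without a library called 2021 to 2860, with 2694 of 15456 without Control 1. In MCT-Fer-1 against Control the 1 called higher became 2 in a fit of only the 2 groups, and the 5 called lower became 3 to 6 without a library (3 without MCT-Fer-1 3, Control 3 or Control 4). Over all genes there, the main fit called 1646 of 15257 and the fit of 2 groups 1875 of 14880. Fits without a library called 977 to 1714, with 995, 1115 and 978 without MCT-Fer-1 3, Control 3 or Control 4 in that order. Between MCT-Fer-1 and MCT-vehicle the 0 called lower became 1, Kcne3, under DESeq2 and 0 to 1 without a library (1 without MCT-vehicle 3). Of all genes, DESeq2 called 237 of 15257 there, and edgeR without MCT-vehicle 3 called 41 of 15443. Without MCT-vehicle 2 and Control 4, 1 channel gene was higher and 4 lower for MCT-Fer-1, and 2 were higher and 4 lower for MCT-vehicle. Calls over all genes were also fewer without this pair, at 978 of 15314 for MCT-Fer-1 and 1675 of 15314 for MCT-vehicle.

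No log2 fold change called in a comparison reversed. Some calls of channel genes were lost under another method. In MCT-vehicle, limma voom no longer called Kcnip3 (adjusted p = 0.0783), Kcnip4 (adjusted p = 0.0753) or Kcnj2 (adjusted p = 0.0754). After thinning, edgeR no longer called Kcnj2 in MCT-vehicle (adjusted p = 0.0674) or Kcnq1 in MCT-Fer-1 (adjusted p = 0.0541). Without the filter, edgeR no longer called Kcnip4 in MCT-vehicle (adjusted p = 0.0657). Of the named genes that were not called, leaving out 1 library gave log2 fold changes in MCT-vehicle against Control of -0.23 to 0.16 for Kcnj8, -0.098 to 0.37 for Kcnma1, -0.18 to 0.14 for Kcna3, -0.0050 to 0.18 for Kcnq5 and -0.42 to 0.16 for Kcnj15. In MCT-Fer-1 against Control the range was -0.33 to 0.93 for Kcna5, -0.097 to 0.12 for Kcnn4, -0.023 to 0.16 for Kcnq5 and -0.60 to 0.21 for Kcng2, and between MCT-Fer-1 and MCT-vehicle it was -0.51 to 0.26 for Kcnip4 and -0.089 to 0.20 for Kcnt2. Signs also turned for Kcnj8 in MCT-vehicle (0.0052 under voom, 0.14 without MCT-vehicle 2 and Control 4, 0.047 after thinning), Kcnma1 in MCT-vehicle (-0.077 without the pair), Kcnn4 in MCT-Fer-1 (-0.023 under voom) and Kcnip4 between the monocrotaline groups (0.27 without the pair). The cause was not tested.

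With a replicate block the calls of channel genes were 1 higher and 4 lower for MCT-Fer-1, 3 higher and 5 lower for MCT-vehicle, and 0 between them. Beside these, 1676, 2812 and 0 of all 15257 genes were called, in that order. With the block, edgeR no longer called Kcnq1 in MCT-Fer-1 (adjusted p = 0.0560) or Kcnj2 in MCT-vehicle (adjusted p = 0.0612). Same-numbered libraries correlated at only -0.0633 to 0.102 in their deviations from group means, and 2, 4 and 1 of 8 libraries in the 3 comparisons correlated best with their own number, so the numbers are not taken as pairs. Depth limits genes of few counts, among them Kcna5, Kcng2 and Kcnip4, which had 4, 3 and 7 counts in MCT-Fer-1 1, the shallowest library.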

Other observations

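Kcnk6, which encodes TWIK-2, was among the 56 genes but varied widely within groups. It had 0.776, 0.138, 0.227 and 0.182 CPM in MCT-Fer-1 libraries, 0.0427, 0.499, 0.97 and 0.21 CPM in MCT-vehicle libraries and 1.7, 0, 0.783 and 0.118 CPM in Control libraries. The spread inside Control covered that of both monocrotaline groups, and the gene was singled out after its values were seen.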
